A study of Mus musculus with 12 samples.

Results

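The response to CHIR99021 was followed in the BCR-positive B lymphoma cells, whose surface B-cell receptor (BCR) was intact. The 6 arrays titled BCR-positive formed the comparison, 3 from treated and 3 from untreated cultures, of 12 arrays in all. Each lymphoma, 2564, 2646 and 2676, gave 1 treated and 1 untreated array, so every change is a difference within a lymphoma. Members were chosen by the titles alone and all 18820 genes with a symbol of their own on the array were read.

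The cells were primary cultures of B lymphomas from l-MYC;B1-8f mice of the C57BL/6J x BALB/c background. The transgene l-MYC drives MYC from immunoglobulin lambda regulatory elements in B cells, and B1-8f is an antibody heavy chain segment flanked for deletion by Cre. All cultures, also those of the untreated groups, had been transduced with TAT-Cre, a cell-entering form of the recombinase. BCR-positive cells, in which the receptor was kept, and BCR-negative cells, which had lost it, therefore shared each dish for 4 days, either untreated or with CHIR99021. The populations were then separated by flow sorting, and their RNA was read on whole-transcript microarrays from Affymetrix (Mouse Gene 1.1 ST). Neither the age of the mice nor the dose of CHIR99021 is stated in the labels.

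CHIR99021 is a small molecule that blocks both forms of glycogen synthase kinase 3 (GSK3). In resting cells GSK3 marks beta-catenin, MYC, NRF2 and other proteins for destruction through the ubiquitin system and holds back glycogen synthase. Signals through the BCR and the kinases PI3K and AKT restrain GSK3 and also keep the FOXO transcription factors out of the nucleus, where these factors otherwise drive genes of quiescence, protein breakdown and antibody gene rearrangement.

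Values are log2 expression as deposited, and a change is the log2 value with CHIR99021 minus the log2 value without it, given as mean ± standard error (SE) from limma with n = 3 lymphomas. The SE comes from the spread pooled over all 12 arrays and not from the 3 changes alone. A gene was called, and is said to have risen or fallen, where the adjusted p was under 0.05. Triplets of values are in the order 2564, 2646, 2676. Each lymphoma is a separate tumour, with 1 culture per condition. The sorted cells carried B-cell genes. Of the B-cell marker list, 13 of 14 genes were measured and its summed linear level was 13140.6 to 16704.8 untreated and 9044.0 to 14959.4 with CHIR99021, lower with the inhibitor in all 3 lymphomas. Ms4a1 (CD20), Fcer2a (CD23) and Cr2 (CD21), which mark mature B cells, were below 6 on all 6 arrays. Of 12 measured T cell markers 11 were below 6 on all untreated and 10 on all treated arrays, and all measured markers of NK cells (8), granulocytes (8), fibroblasts (11) and erythroid cells (4) were below 6. No marker of any list was called. The variable segment of the B1-8 receptor, Ighv1-72, read 10.26, 10.51 and 10.38 untreated and 9.996, 10.63 and 10.22 with CHIR99021. The groups overlapped, and the change was -0.10 ± 0.331 (limma, adjusted p = 0.963). In such bulk samples, fewer cells of a type and less RNA per cell cannot be told apart.

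CHIR99021 lowered 13 genes and raised 1 in BCR-positive cells, 14 of 18820 tested (0.0744%, with 0.0691% lower and 0.00531% higher). Those that fell encode ubiquitin ligase adaptors (Klhl24, Fbxl20, Fbxo32), a GSK3-binding protein (Frat1), a PI3K catalytic subunit (Pik3cg), a linker histone (H1f10), a nuclear envelope protein (Sun2) and others, and the gene that rose was Reep6, which shapes the endoplasmic reticulum (ER). The log2 changes of those that fell ran from -0.35 ± 0.0489 for Foxc1 to -1.90 ± 0.258 for Klhl24. All 14 had the same sign in all 3 lymphomas, a property that 18.6% (higher) and 16.8% (lower) of all genes shared. In 8 of the 14 the treated and untreated arrays did not overlap, against 7.35% of all genes. The change was largest in lymphoma 2564 for 11 of the 14 and smallest in 2646 for 12.

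These counts moved with single arrays and with the block. With all arrays of lymphoma 2564, 2646 or 2676 left out, 1, 0 and 0 genes were called, and with 1 BCR-positive array left out the count was 0, except 6 without the untreated array of 2646. Without 1 BCR-negative array, which enters only through the shared spread and the lymphoma term, it was 2 (treated, 2646), 3 (untreated, 2676), 20 (treated, 2564 or 2676), 35 (untreated, 2646) or 38 (untreated, 2564). Without lymphoma as a block no gene was called by limma and 411 had an unadjusted p under 0.05, while the 6 BCR-positive arrays alone with the block gave 109 called genes, 36 higher and 73 lower, among them 13 of the 14. The sign of all 14 changes was the same in all 27 alternative settings. Settings that changed only the block or left out a BCR-negative array leave the mean change as it was. They therefore do not test its sign.

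**Figure D1:**
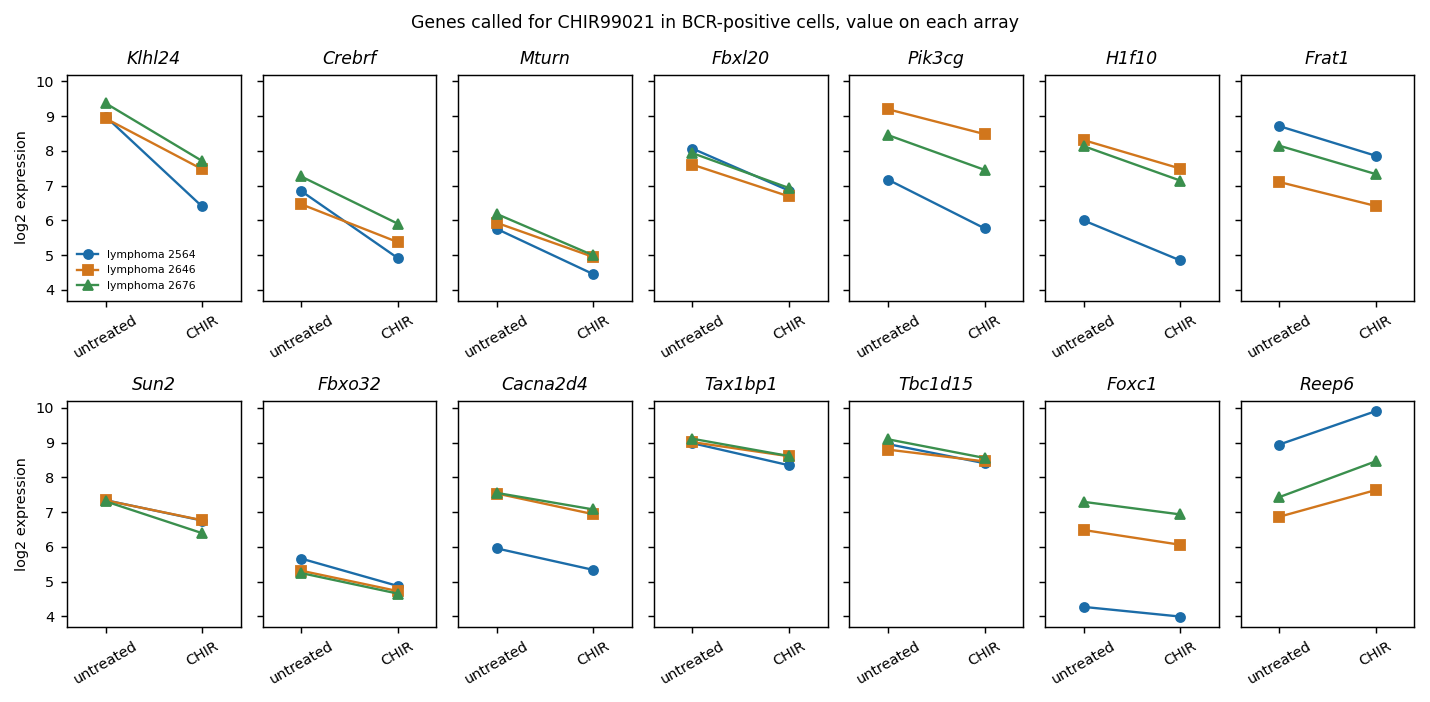
Log2 expression (vertical axis) of the 14 called genes on each of the 6 arrays, untreated on the left and with CHIR99021 on the right of each panel; lines join the 2 arrays of a lymphoma. All 3 lines fall in 13 panels and rise in the Reep6 panel, and starting levels differ between lymphomas, widely so for Foxc1, H1f10, Reep6 and Pik3cg.

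Of the 3 ubiquitin ligase adaptors called, Klhl24 fell most, and it had the largest fall of all called genes. Klhl24, a Kelch protein that brings substrates to the CUL3 ubiquitin ligase, read 8.99, 8.94 and 9.37 untreated and 6.404, 7.48 and 7.71 with CHIR99021. All treated arrays lay below all untreated ones. It fell by 1.90 ± 0.258 (3.74-fold; limma, adjusted p = 0.0447), and the change of -2.59 in lymphoma 2564 was the largest of the 3. Fbxl20, an F-box protein that gives an SCF ubiquitin ligase its substrates, read 8.07, 7.61 and 7.94 and then 6.86, 6.69 and 6.93, again with no overlap, a fall of 1.04 ± 0.141 (limma, adjusted p = 0.0447). Fbxo32 (atrogin-1), the F-box protein of muscle wasting and a textbook FOXO target, stood low at 5.66, 5.31 and 5.24 and went to 4.87, 4.73 and 4.65. Its groups did not overlap and it fell by 0.65 ± 0.0831 (limma, adjusted p = 0.0387).

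The families around them did not follow as a whole. Of 29 measured F-box and SCF genes, 2 fell, none rose, and the median change was -0.03. Btrc, which encodes the F-box protein that recognises beta-catenin after GSK3 has marked it, had -0.35 ± 0.0802 and was not called (limma, adjusted p = 0.154). Of 23 Kelch-like CUL3 adaptors, 1 fell, and the median was 0.03 beside 0.00 over all genes. Klhl6, a Kelch adaptor of germinal centre B cells, had -0.69 ± 0.142 (adjusted p = 0.114), and Klhl36 had 0.12.

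Crebrf, which binds the ER-stress factor CREB3 and lowers its activity, read 6.85, 6.47 and 7.27 untreated and 4.92, 5.38 and 5.91 treated. No treated array reached an untreated one, and it fell by 1.46 ± 0.181 (2.75-fold; limma, adjusted p = 0.0387). Mturn (maturin), known from neural progenitor differentiation, had the smallest p of all genes. It read 5.76, 5.93 and 6.19 and then 4.45, 4.95 and 4.996, with no overlap and changes of -1.30, -0.98 and -1.19, a fall of 1.16 ± 0.0974 (limma, adjusted p = 0.00825). It was also the called gene that passed most often, in 17 of the 27 alternative settings.

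Genes of the GSK3 and PI3K pathways followed. Frat1 encodes a protein that binds GSK3 and takes it away from axin. It read 8.72, 7.11 and 8.15 untreated and 7.86, 6.42 and 7.33 with CHIR99021. The groups overlapped because the lymphomas started from different levels, while the changes of -0.85, -0.69 and -0.82 were alike, and it fell by 0.79 ± 0.0991 (limma, adjusted p = 0.0387). Its relative Frat2 had -0.57, 0.02 and -0.56, near 0 in lymphoma 2646, and its mean of -0.37 ± 0.111 was not called (adjusted p = 0.275). Of 15 measured GSK3 partners and members of the beta-catenin destruction complex, Frat1 was the one gene called, and the median change was -0.03.

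One target of the drug, Gsk3b, was not called. It read 8.98, 8.97 and 9.48 untreated and 8.93, 9.06 and 9.42 treated. Its groups overlapped, its change was -0.01 ± 0.0527 (limma, adjusted p = 0.983), and the 95% interval ran from -0.13 to 0.11. Gsk3a was not analysed here. CHIR99021 acts on the enzyme's activity, which RNA does not measure.

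Textbook targets of beta-catenin had changes in both directions. None of 21 measured Wnt target genes was called, the median was 0.02, and 2 had a higher and 4 a lower value at an unadjusted p under 0.05, against 4.69% and 5.36% of all genes. Axin2, the common reporter of Wnt signalling, read 5.06, 5.12 and 5.13 and then 5.37, 5.06 and 5.15, a change of 0.09 ± 0.104 (adjusted p = 0.857). Lef1 read 4.26 to 4.47 on all 6 arrays. Znrf3, which removes Frizzled receptors from the surface and so damps Wnt signals, came closest to the threshold. It read 7.94, 7.62 and 8.38 untreated and 8.46, 7.97 and 8.76 treated, a change of 0.41 ± 0.0613 (limma, adjusted p = 0.0539), positive in all 3 lymphomas though the groups overlapped. The receptor gene Fzd7 had 0.65, 0.79 and 0.32, a mean of 0.58 ± 0.119 (adjusted p = 0.112). The 4 lower ones at an unadjusted p under 0.05 were Lgr5, a receptor of stem cells, with -1.08, -0.43 and -0.85 and a mean of -0.79 ± 0.27 (limma, adjusted p = 0.342), Sox4 at -0.46 ± 0.155, Myc at -0.17 and Cd44 at -0.14. Ctnnb1 itself, the gene of beta-catenin, had -0.08 ± 0.0537.

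Genes of other processes under GSK3 control were not called either. Gys1, muscle-type glycogen synthase, had 0.23 ± 0.107 (adjusted p = 0.523), and none of 19 glycogen genes was called. The phosphorylase kinase subunits Phka1 and Phka2 had -0.32 and -0.27, and Pygm, muscle glycogen phosphorylase, had 0.26. Nfe2l2, the gene of NRF2, had 0.08 ± 0.0707. Of its 22 measured targets none was called, 19 changes were positive, against 51.2% of all genes, and the median was 0.12. Gclc, the catalytic subunit of glutathione synthesis, was negative at -0.26 ± 0.0693, and Pgd, of the pentose phosphate pathway, had 0.24 ± 0.0859. Hmox1, the haem oxygenase among them, read 6.74, 8.72 and 5.87 untreated and 8.94, 9.22 and 6.32 treated. Lymphoma 2564 carried most of its mean of 1.05 ± 0.384 (adjusted p = 0.378), and the groups overlapped.

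Pik3cg encodes p110 gamma, the PI3K catalytic subunit that acts below G protein-coupled receptors. It read 7.17, 9.20 and 8.46 untreated and 5.77, 8.49 and 7.46 with CHIR99021. Levels of the lymphomas differed by more than the change, so the groups overlapped, and within lymphomas it moved by -1.40, -0.71 and -1.001, a fall of 1.04 ± 0.136 (2.05-fold; limma, adjusted p = 0.0404). It was the one called gene of 33 in the PI3K, AKT and mTOR list, whose median was -0.05. Pik3ip1, an inhibitor of PI3K, had -0.71, -0.16 and -0.52 and a mean of -0.46 ± 0.128 (adjusted p = 0.232). Phlpp1, a phosphatase that switches off AKT, had -0.37 ± 0.116. Pik3r5, the regulatory partner of p110 gamma, had 0.22 ± 0.0711.

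FOXO factors read the letters GTAAACA, and upstream sequences from RefSeq (GRCm38.p6) were searched for them on both strands over the 250 bases before each listed start. A gene counted where any of its starts held a match. This was so for 956 of 27025 genes (3.54%). Of the 14 called genes 10 had a sequence in this table, and Pik3cg was the one with a match, upstream of 1 of its 2 listed starts. Its window is shown as that of the called gene with a match, and capitals mark the match. It is chr12:32208510-32208609, minus strand, 5′ to 3′.
Pik3cg: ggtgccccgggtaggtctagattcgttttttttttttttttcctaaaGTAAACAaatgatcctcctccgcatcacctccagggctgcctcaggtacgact
A match describes these letters and is no evidence of binding.

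Of 32 measured FOXO target genes, Fbxo32 fell and none rose. The median was -0.12 (-0.05 without the treated array of lymphoma 2646), and 21 changes were negative and 11 positive. At an unadjusted p under 0.05, 10 were lower and 3 higher, beside 5.36% and 4.69% of all genes. Ccng2, a cyclin-like gene of cell cycle exit, read 7.62, 7.44 and 7.63 untreated and 6.36, 6.59 and 6.49 treated. The groups did not overlap, yet its change of -1.08 ± 0.172 was not called (limma, adjusted p = 0.0728). Rag2, a partner in the recombinase that assembles antibody genes, read 6.70, 8.39 and 5.75 and then 4.01, 7.08 and 4.21, a change of -1.85 ± 0.347 (adjusted p = 0.0963). Its level differed so much between lymphomas that treated cells of 2646 lay above untreated cells of 2564. Cdkn1b (p27) had -0.37 ± 0.111 and Gadd45a had -0.48 ± 0.167. Other familiar FOXO targets lay near 0, Bcl2l11 (BIM) at -0.05, Txnip at -0.06 and Trim63 at 0.03. Among the list's 27 genes with an upstream sequence, 4 held GTAAACA (14.8%), Bbc3, Bcl2l11, Trim63 and Txnip, and Fbxo32 was not in the table. The median change was -0.02 for these 4 and -0.18 for the 23 without the letters.

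**Figure D2:**
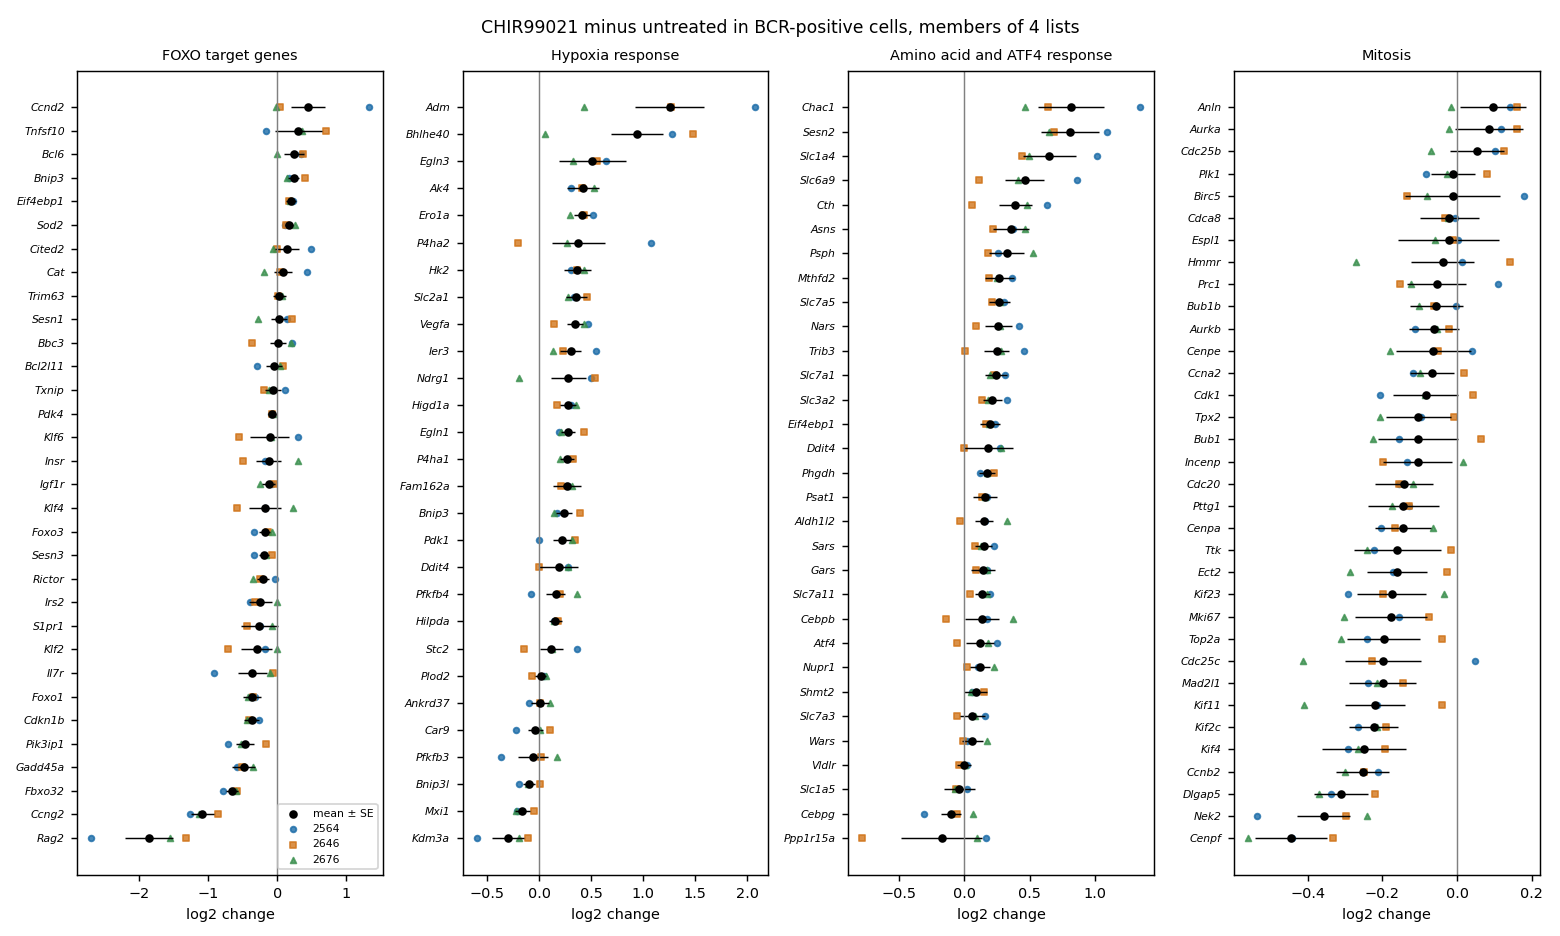
Log2 change with CHIR99021 in BCR-positive cells (horizontal axis) for the measured members of 4 lists, sorted by size within each; black points and bars are the mean and SE, coloured points the 3 lymphomas, and each panel has its own scale. Most hypoxia and ATF4 genes lie right of 0 and most mitosis genes left of it, with lymphoma 2564 far out for Adm, Chac1 and Rag2.

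Histone and nuclear envelope genes held 2 of the called genes. H1f10, a linker histone made outside of DNA replication, read 6.001, 8.31 and 8.14 untreated and 4.85, 7.49 and 7.15 treated. The groups overlapped only because lymphoma 2564 stood lower throughout, and it fell by 0.99 ± 0.1 (limma, adjusted p = 0.0222), the second smallest p of all genes. All 13 measured linker and replacement histones had a negative change, against 48.8% of all genes, with a median of -0.16. H2az2, a replacement form of histone H2A, read 10.06, 10.11 and 10.04 and then 8.74, 9.51 and 9.07. No arrays overlapped, and its change of -0.96 ± 0.164 was not called (adjusted p = 0.0768). H3f3a, a replacement form of histone H3, had -0.34 ± 0.1.

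Sun2, which spans the inner nuclear membrane and ties the nucleus to the cytoskeleton, read 7.34, 7.34 and 7.31 untreated and 6.75, 6.76 and 6.39 with CHIR99021. The untreated arrays of the 3 lymphomas were close together, and all treated ones were lower. It fell by 0.69 ± 0.0857 (limma, adjusted p = 0.0387), alone among 16 measured nuclear envelope genes. Their median was -0.05, and -0.01 without lymphoma 2676, -0.02 without its treated array and -0.09 without the treated array of 2646. Lemd3 and Tmpo, proteins of the inner nuclear membrane, had -0.25 ± 0.0653 and -0.19 ± 0.0546.

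The other called genes act in vesicle traffic, calcium entry and transcription. Tax1bp1, an autophagy receptor that also helps A20 to end NF-kappaB signals, read 8.98, 9.01 and 9.11 and then 8.35, 8.61 and 8.61. Its groups did not overlap and it fell by 0.51 ± 0.0588 (limma, adjusted p = 0.0387). Tbc1d15, which switches off the small GTPase Rab7 on late endosomes and mitochondria, read 8.95, 8.80 and 9.09 and then 8.41, 8.46 and 8.56, also without overlap, a fall of 0.47 ± 0.059 (adjusted p = 0.0387). Both changes were small and alike between lymphomas. Cacna2d4, an auxiliary subunit of voltage-gated calcium channels, read 5.95, 7.53 and 7.55 and then 5.33, 6.94 and 7.07, a fall of 0.56 ± 0.0785 (limma, adjusted p = 0.0488). The groups overlapped, with lymphoma 2564 lower than the other 2 in either culture. No other of 15 measured channel subunits was called, with Cacna1h at -0.52 ± 0.0998 and Cacnb4 at 0.57 ± 0.179. Foxc1, a forkhead factor, read 4.27, 6.48 and 7.29 and then 3.99, 6.06 and 6.93. It fell by 0.35 ± 0.0489 (adjusted p = 0.0482), its groups overlapped, and in 2564 it lay close to the level below which 30% of genes stood (4.12).

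Reep6, a membrane protein that bends and sorts the ER, was the gene that rose. It read 8.94, 6.86 and 7.43 untreated and 9.90, 7.63 and 8.46 with CHIR99021. The groups overlapped because the lymphomas started from different levels, and the change was 0.92 ± 0.118 (1.89-fold; limma, adjusted p = 0.0387). None of the other 13 measured reticulon and REEP family genes was called, and the list's median was 0.03, with Rtn2 at 0.18 and Atl3 at -0.11.

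Beyond the threshold, the lower values that came closest to it included genes of growth control. Pdcd4, a translation inhibitor known as a tumour suppressor, read 10.42, 9.39 and 10.05 untreated and 9.34, 8.31 and 8.83 treated, with no overlap and a change of -1.13 ± 0.166 (limma, adjusted p = 0.0539). Pim1, a pro-survival kinase induced by cytokine signals, had -0.92, -1.20 and -1.07, a mean of -1.06 ± 0.16 (adjusted p = 0.0539). Trp53inp1, a p53-induced stress protein of autophagy, had -0.89, -0.73 and -1.25, a mean of -0.96 ± 0.145 (adjusted p = 0.0539). In all of these the treated arrays lay below the untreated ones. Wdr45, an autophagy gene, had -0.80 ± 0.114 and Inpp5k, a phosphoinositide phosphatase, had -0.65 ± 0.0972 (adjusted p = 0.0525 and 0.0539). Smim14, Hacl1, Tcp11l2 and Ccdc28a had, with Ccng2 (described with the FOXO targets), the other smallest p among genes that were lower but not called, and their own changes were -0.46, -0.54, -0.96 and -0.68.

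Of the genes higher with CHIR99021 that missed the threshold, Prrg4 had 0.75 ± 0.109 (limma, adjusted p = 0.0525), and Plxnc1, a semaphorin receptor, had 0.57 ± 0.0837 (adjusted p = 0.0539). Tspan4, a tetraspanin, had 0.76, 0.63 and 0.71 with no overlap between the groups, a mean of 0.70 ± 0.111 (adjusted p = 0.0729). Esrra, a nuclear receptor that drives mitochondrial genes, had 0.52 ± 0.0887. Rcor2, Mospd3, Tmem120b and Desi2 had 0.43, 0.32, 0.51 and 0.38. The small RNA gene Rn4.5s, whose copies are repeated in the genome so that its probes may read several of them, had 0.68 ± 0.11.

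Some of the largest mean changes came with a wide spread. Cdkn1a (p21), which arrests the cell cycle below p53, read 6.51, 8.80 and 6.14 untreated and 8.84, 9.54 and 7.03 treated. It was higher in every lymphoma but by 2.32, 0.74 and 0.89, and its mean of 1.32 ± 0.386 was not called (limma, adjusted p = 0.258) and the groups overlapped. Zmat3, another of 23 measured p53 targets, had 0.53 ± 0.131, and none of that list was called. Csf1r, the receptor of macrophage colony-stimulating factor, read 4.52, 6.96 and 5.76 and then 4.83, 8.53 and 6.74, a change of 0.95 ± 0.231 (adjusted p = 0.168). It is also 1 of 14 macrophage markers, of which 11 were below 6 on all arrays, while their summed level was 339.9 to 530.2 untreated and 348.7 to 718.0 treated. The part of such cells in the Csf1r value was not tested.

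Genes of the hypoxia response were the list with the highest median, 0.27, and medians of 0.28, 0.20 and 0.20 in the 3 lymphomas, beside 0.00 over all genes. None of the 28 was called. At an unadjusted p under 0.05, 14 were higher and 1 lower, beside 4.69% and 5.36% of all genes, and 17 were higher in all 3 lymphomas. Ero1a, the ER oxidase that forms disulfide bonds, read 10.97, 10.51 and 10.77 untreated and 11.49, 10.94 and 11.06 treated, a change of 0.41 ± 0.081 (limma, adjusted p = 0.105). Vegfa, the vascular growth factor, had 0.47, 0.14 and 0.43, a mean of 0.35 ± 0.0763 (adjusted p = 0.137). Both were positive in every lymphoma with overlapping groups. P4ha1, a collagen prolyl hydroxylase, had 0.27 ± 0.0648, and Egln1 (PHD2), the oxygen sensor that marks HIF for destruction, had 0.28 ± 0.0713 with no overlap. Adm (adrenomedullin) had 2.07, 1.27 and 0.43, the widest span in the list, and a mean of 1.26 ± 0.333 (adjusted p = 0.219). Bhlhe40, a transcriptional repressor that HIF induces, read 4.76, 5.66 and 4.53 and then 6.03, 7.15 and 4.59, a mean of 0.94 ± 0.252 (adjusted p = 0.227) to which lymphoma 2676 added almost nothing. Kdm3a, a histone demethylase induced by HIF, was negative at -0.30 ± 0.152.

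The letters ACGTG, the core that hypoxia-inducible factors read, stood within 250 bases upstream of 18 of the 24 hypoxia genes with a sequence (75%). They stood upstream of 18.5% of all 27025 genes and 21.1% of the 14749 measured on the array. In 3 of the 18 the match lay in the longer E-box CACGTG. Inside the list, the median change was 0.27 for genes with the letters and 0.19 for the 6 without. Over all measured genes with a sequence it was 0.006 with the letters and 0.002 without. Of the 10 called genes with a sequence, 4 held the letters, Crebrf, Fbxl20, H1f10 and Tax1bp1, and each of these fell. Windows of 3 genes with a single listed start and low p are given to show the letters in place, in capitals, 5′ to 3′ on the gene's strand, where CACGT is the same core on the other strand. They lie at chr14:45318584-45318683, minus strand for Ero1a, chr10:59323196-59323295, plus strand for P4ha1 and chr8:124949271-124949370, minus strand for Egln1.
Ero1a: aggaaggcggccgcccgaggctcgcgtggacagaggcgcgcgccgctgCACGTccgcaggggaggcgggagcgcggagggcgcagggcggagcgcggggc
P4ha1: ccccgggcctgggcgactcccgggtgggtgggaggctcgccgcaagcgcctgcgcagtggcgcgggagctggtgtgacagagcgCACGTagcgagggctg
Egln1: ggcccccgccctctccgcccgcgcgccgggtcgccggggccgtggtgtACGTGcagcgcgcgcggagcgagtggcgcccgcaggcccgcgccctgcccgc

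Glycolysis genes leaned the same way by less, in a list that shares members such as Slc2a1 and Hk2 with the hypoxia list. Of 20 measured, 19 changes were positive, against 51.2% of all genes, none was called, and the median was 0.10. Pfkl and Pfkp, forms of phosphofructokinase, had 0.29 ± 0.0795 and 0.35 ± 0.0996 (limma, adjusted p = 0.232 and 0.234). Slc2a1, the glucose transporter GLUT1, had 0.36 ± 0.101, and Hk2, hexokinase 2, had 0.36 ± 0.129. In all of these every lymphoma was higher with CHIR99021.

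The amino acid response, run by the stress factor ATF4, was similar in breadth. Of 31 measured genes none was called, and the median was 0.18 (0.23, 0.09 and 0.20 by lymphoma). At an unadjusted p under 0.05, 16 were higher and 0 lower, beside 4.69% and 5.36% of all genes. Sesn2, a stress-induced brake on mTORC1, read 5.84, 5.61 and 6.14 untreated and 6.93, 6.29 and 6.79 treated. Its groups did not overlap and its change was 0.81 ± 0.218 (limma, adjusted p = 0.228). Chac1, which breaks down glutathione, read 5.76, 5.63 and 5.83 and then 7.10, 6.27 and 6.30, also without overlap, a change of 0.81 ± 0.255 (adjusted p = 0.293) led by lymphoma 2564. The amino acid carriers Slc7a5 and Slc3a2, which work as a pair, had 0.27 ± 0.0798 and 0.21 ± 0.0736, and neutral amino acid carrier Slc1a4 had 0.65 ± 0.202. Asns, asparagine synthetase, had 0.35 ± 0.137. Atf4 itself had 0.12 ± 0.106, with lymphoma 2646 negative.

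The element that ATF4 and C/EBP factors share, searched as TGATGNAA, was upstream of 6 of the 23 genes of this list with a sequence (26.1%), beside 3.91% of all genes. The 6 were Asns, Chac1, Gars, Nupr1, Slc7a11 and Vldlr. Their median change was 0.14 and that of the 17 without it 0.19. The windows of 3 of them, each with a single listed start, show the element in capitals, 5′ to 3′ on the gene's strand, in whichever orientation it was found. They are chr2:119351003-119351102, plus strand for Chac1, chr6:7693210-7693309, minus strand for Asns and chr3:50443614-50443713, minus strand for Slc7a11, which holds 2.
Chac1: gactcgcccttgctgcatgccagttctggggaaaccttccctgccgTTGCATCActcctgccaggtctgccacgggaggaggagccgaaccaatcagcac
Asns: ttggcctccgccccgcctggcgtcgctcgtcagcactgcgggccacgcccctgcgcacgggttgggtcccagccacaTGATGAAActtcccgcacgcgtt
Slc7a11: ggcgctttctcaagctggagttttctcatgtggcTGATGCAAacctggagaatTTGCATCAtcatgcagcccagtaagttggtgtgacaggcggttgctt

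ER folding genes leaned higher with exceptions. Of 31 measured, Crebrf fell, and 7 others were higher and 2 more lower at an unadjusted p under 0.05. Over all genes these shares were 4.69% and 5.36%. The list's median was 0.10 (0.07 without the untreated array of lymphoma 2564). Xbp1, the master factor of ER capacity, had 0.31 ± 0.0988 (limma, adjusted p = 0.295). Derl3, which helps to remove misfolded proteins from the ER, had -1.33, -0.30 and -0.87, a mean of -0.84 ± 0.181 (adjusted p = 0.134). Ero1b, the relative of Ero1a, had -0.56 ± 0.197, opposite in sign to Ero1a.

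Lysosome and autophagy genes had a median of 0.07 over 35 measured, with none called. At an unadjusted p under 0.05, 7 were higher and 2 lower, beside 4.69% and 5.36% of all genes. Lamp1, a main protein of the lysosomal membrane, read 9.93, 9.92 and 9.97 untreated and 10.25, 10.32 and 10.19 treated, a change of 0.32 ± 0.0727 without overlap (limma, adjusted p = 0.153). The hydrolases Neu1, Ctsz and Gusb had 0.37 ± 0.0909, 0.37 ± 0.0993 and 0.28 ± 0.0763. Map1lc3b, which encodes the autophagosome protein LC3B, was negative at -0.29 ± 0.0941. The E-box CACGTG, the core that TFEB and MYC both read, stood upstream of 10 of 32 of these genes (31.2%) and of 6.86% of all genes.

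Growth genes downstream of MYC had small positive changes. Of 40 nucleolar and growth targets none was called, 37 changes were positive, against 51.2% of all genes, and the median was 0.09. It was 0.05 without lymphoma 2676, 0.03 without its treated array and 0.15 without the treated array of 2564. Rrp9, Noc4l and Mrto4, factors of ribosome assembly, had 0.31 ± 0.11, 0.22 ± 0.0715 and 0.22 ± 0.0798. Oxidative phosphorylation genes were positive in 33 of 37 with a median of only 0.04, and the smallest p were those of Cox4i1, Ndufb8 and Sdhc at 0.20, 0.21 and 0.13. Ribosomal protein genes, 39 measured, had a median of 0.02 and none with an unadjusted p under 0.05 (Rps19 0.10, Rplp2 -0.06, Rpl8 0.07). The array's Myc probe set was low at 3.98 to 4.46 on the 6 arrays and had -0.17 ± 0.0551 (limma, adjusted p = 0.293). Of the MYC, MAX and MXD network 11 of 14 changes were negative, with a median of -0.14. Mxd4, an antagonist of MYC that pairs with MAX, read 8.71, 8.25 and 8.90 and then 7.62, 7.64 and 8.29, a change of -0.77 ± 0.157 (adjusted p = 0.114), and Mxd1 had -0.33 ± 0.0874.

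**Figure D3:**
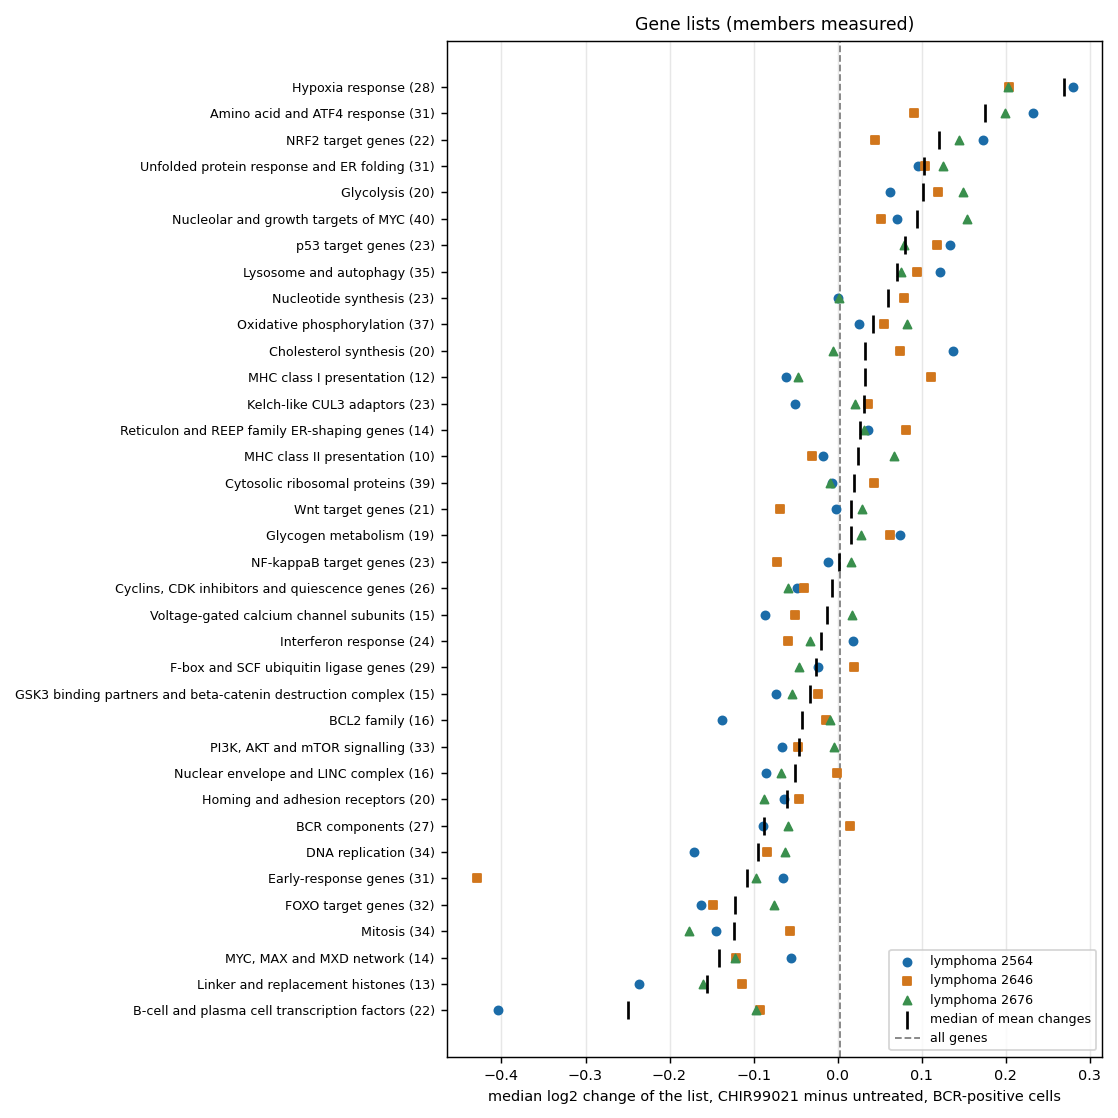
Median log2 change with CHIR99021 in BCR-positive cells (horizontal axis) for 36 gene lists, with the number of measured members in brackets; ticks are medians over the mean changes, symbols the medians within each lymphoma, and the dashed line the median of all genes. Hypoxia and ATF4 genes stand highest and B-cell transcription factors lowest, the latter with lymphoma 2564 far from the other 2.

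Cell division genes leaned lower. Of 34 DNA replication genes none was called and 30 changes were negative, against 48.8% of all genes. At an unadjusted p under 0.05, 7 were lower and 0 higher, beside 5.36% and 4.69% of all genes. The median was -0.10. It was -0.04 without the treated array of 2564, -0.05 without the untreated array of 2646 and -0.14 without lymphoma 2676. Mcm7, part of the helicase that opens DNA, read 10.90, 10.96 and 11.04 untreated and 10.58, 10.75 and 10.80 treated, without overlap, a change of -0.25 ± 0.0694 (limma, adjusted p = 0.232). Gins4, a partner of that helicase, had -0.23 ± 0.0651, and Clspn, a checkpoint adaptor at the fork, had -0.27 ± 0.0897. Mitosis genes had a median of -0.12, with 31 of 34 negative and 6 lower and 0 higher at an unadjusted p under 0.05. Cenpf, a kinetochore protein, read 8.29, 8.44 and 8.59 and then 7.85, 8.11 and 8.03, again without overlap, a change of -0.44 ± 0.0975 (adjusted p = 0.137). Nek2, a kinase that parts the centrosomes, had -0.36 ± 0.0717 (adjusted p = 0.11), and Dlgap5, a spindle protein, had -0.31 ± 0.0723. Besides Cdkn1a and Ccng2, the antiproliferative gene Btg1 had -0.52 ± 0.118 and the retinoblastoma gene Rb1 had -0.57 ± 0.135, neither called. Ccnd1, cyclin D1, differed between lymphomas with changes of -0.01, -0.11 and 0.49.

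B-cell identity genes were lower on balance, most of all in lymphoma 2564. Of 22 B-cell and plasma cell transcription factors none was called and 17 changes were negative, against 48.8% of all genes. At an unadjusted p under 0.05, 9 were lower and 1 higher, beside 5.36% and 4.69% of all genes. The median was -0.25. The medians by lymphoma were -0.40, -0.09 and -0.10, and without lymphoma 2564, or without its treated array alone, the median was -0.09 and -0.14. The summed B-cell markers went from 13140.6 to 9044.0 in lymphoma 2564, from 16704.8 to 14959.4 in 2646 and from 15128.2 to 13952.1 in 2676, and their part in this result was not tested. Foxp1, a forkhead factor of mature B cells, read 10.19, 10.12 and 10.27 untreated and 9.70, 9.82 and 10.002 treated, with no overlap and a change of -0.35 ± 0.0694 (limma, adjusted p = 0.105). Ets1, which restrains plasma cell fate, had -0.31 ± 0.0759, Ikzf3 (Aiolos) had -0.40 ± 0.121 and Irf4 had -0.42 ± 0.132. Ebf1, which sets the B lineage, read 10.09, 10.17 and 10.80 and then 8.47, 9.95 and 10.17, with the largest difference again in 2564.

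Parts of the receptor and its first kinases had smaller changes. Of 27 BCR components none was called, and 17 changes were negative and 10 positive, against 48.8% and 51.2% of all genes. At an unadjusted p under 0.05, 5 were lower and 0 higher, beside 5.36% and 4.69% of all genes. The median was -0.09. It was -0.05 without lymphoma 2564 or 2676 and -0.02 without the untreated array of 2676. Syk, the kinase that starts BCR signalling, read 9.64, 9.97 and 9.65 untreated and 9.08, 9.73 and 9.38 treated, a change of -0.35 ± 0.0688 (limma, adjusted p = 0.105). Cd79b, a signalling chain of the receptor, had -0.44, -0.23 and -0.24, a mean of -0.30 ± 0.0604 without overlap (adjusted p = 0.107), and its partner Cd79a had -0.14 ± 0.0773. Prkcb, the protein kinase C form that leads to NF-kappaB, had -1.24, -0.36 and -0.45, a mean of -0.68 ± 0.174. Ighm, the IgM heavy chain, read 4.38, 7.60 and 4.27 and then 4.25, 8.14 and 4.14, near the floor in 2 of the lymphomas.

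Genes that answer receptor signals within minutes had a median of -0.11, and lymphoma 2646 stood apart at -0.43 beside -0.06 and -0.10. Of 31 measured none was called and 24 were negative, against 48.8% of all genes. Without lymphoma 2564 the median was -0.23, and without its untreated or treated array, or the treated array of 2676, it was -0.21, -0.18 and -0.18. Egr1 read 7.17, 8.85 and 6.18 and then 6.61, 7.73 and 5.97, a change of -0.63 ± 0.208 (limma, adjusted p = 0.324), and Nr4a2 had -0.53 ± 0.153. NF-kappaB targets had a median of 0.00 over 23 genes. Icam1, an adhesion molecule among them, read 7.45, 7.31 and 7.22 and then 7.97, 7.77 and 7.73, higher without overlap by 0.49 ± 0.124 (adjusted p = 0.193), and Nfkbia, the inhibitor IkappaB alpha, had -0.42 ± 0.179. The cytokine gene Ltb had 0.27 ± 0.0836. Another adhesion gene, Icam2, had -0.46 ± 0.108, opposite to Icam1, and the integrin gene Itgal had 0.43 ± 0.12. Interferon, cholesterol, BCL2 family, MHC class I and MHC class II genes had no called member and medians between -0.04 and 0.03.

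By p, the leading genes of those lists had these mean changes, none of them called. Among interferon genes Gbp3, Bst2 and Eif2ak2 had -0.48, 0.45 and -0.19. In the BCL2 family the pro-apoptotic genes Bak1 and Bik had 0.25 and 0.16, and the pro-survival gene Bcl2l2 had -0.26. Of the MHC class I list Nlrc5, the transactivator of those genes, had -0.38, Psmb9 -0.28 and Pdia3 0.26. The MHC class II regulators Rfxap and Rfx5 had 0.17 and -0.19, and H2-Ob had -0.17. Cholesterol synthesis genes Pmvk, Dhcr7 and Cyp51 had 0.34, 0.30 and 0.20. Of 23 nucleotide synthesis genes, which had a median of 0.06, Impdh1 had 0.32 ± 0.0701 (limma, adjusted p = 0.137), Ctps2 -0.22 and Dck -0.29.

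The same inhibitor in BCR-negative cells of the same dishes was read on 6 arrays that share none with the comparison above. Both changes were tested with 1 shared estimate of each gene's spread, so the calls in the 2 populations are not independent. There 692 genes were called, 3.68% of those tested, 360 higher (1.91%) and 332 lower (1.76%). Of the 14 genes called in BCR-positive cells, 13 were called with the same sign in BCR-negative cells, and in 10 the change was larger there. Mturn fell by 1.80 ± 0.0974, Crebrf by 1.88 ± 0.181, Klhl24 by 1.79 ± 0.258 and Frat1 by 0.91 ± 0.0991, and Reep6 rose by 1.06 ± 0.118. Foxc1 was the exception at -0.08 ± 0.0489 (limma, adjusted p = 0.463). Of the 692 genes called in BCR-negative cells, 655 had the same sign in BCR-positive cells. The share of all genes with the same sign in both populations was not counted. Across genes the changes of the populations correlated at r = 0.655, a description over genes that share the 3 lymphomas and the dishes. Within BCR-positive cells, the changes of lymphoma pairs correlated across genes at r = 0.290 to 0.407.

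The test of the difference between the populations called no gene by limma, and 990 had an unadjusted p under 0.05 (5.26%), 631 with a higher change (3.35%) and 359 with a lower change (1.91%) in BCR-negative cells. The smallest adjusted p was 0.276, for Lima1, an actin-binding protein, whose change was -0.14 ± 0.097 where the receptor was kept and -1.23 ± 0.097 where it was lost. Foxc1 differed by 0.28 ± 0.0692 (limma, adjusted p = 0.928). Tnfaip3 (A20) and Nfkbie, brakes on NF-kappaB, had -0.17 ± 0.18 and -0.32 ± 0.106 in BCR-positive cells and -1.73 ± 0.18 and -1.25 ± 0.106 in BCR-negative cells, and the differences of -1.55 ± 0.255 and -0.93 ± 0.15 were not called (adjusted p = 0.83 and 0.83). The other genes with the smallest p for a lower change in BCR-negative cells were Cacna1e, which differed by -1.34 ± 0.254, and Kyat1, by -0.47 ± 0.09. For a higher change they were Pdhx, Smarca5, Rfc1, Mrpl32 and Sgk3, with differences of 0.39 ± 0.0792, 0.40 ± 0.0793, 0.37 ± 0.0764, 0.41 ± 0.0877 and 0.56 ± 0.122, none of them called (adjusted p = 0.928 for each of these 7). Untreated, Tnfaip3 read 4.76, 6.23 and 4.85 in BCR-positive and 6.38, 8.68 and 7.03 in BCR-negative cells. With CHIR99021 it read 4.90, 6.36 and 5.65 in BCR-negative cells. Lima1, Nfkbie, Cacna1e and Kyat1 also read lower in untreated BCR-positive cells in all 3 lymphomas. Pdhx, Smarca5, Rfc1, Mrpl32 and Sgk3 read higher there. The part of the starting level in these differences was not tested. Early-response genes had a median of -0.11 with the receptor and of -0.69 without it. Hypoxia genes had 0.27 and 0.20, ATF4 genes 0.18 and 0.14, and FOXO targets -0.12 and -0.28.

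**Figure D4:**
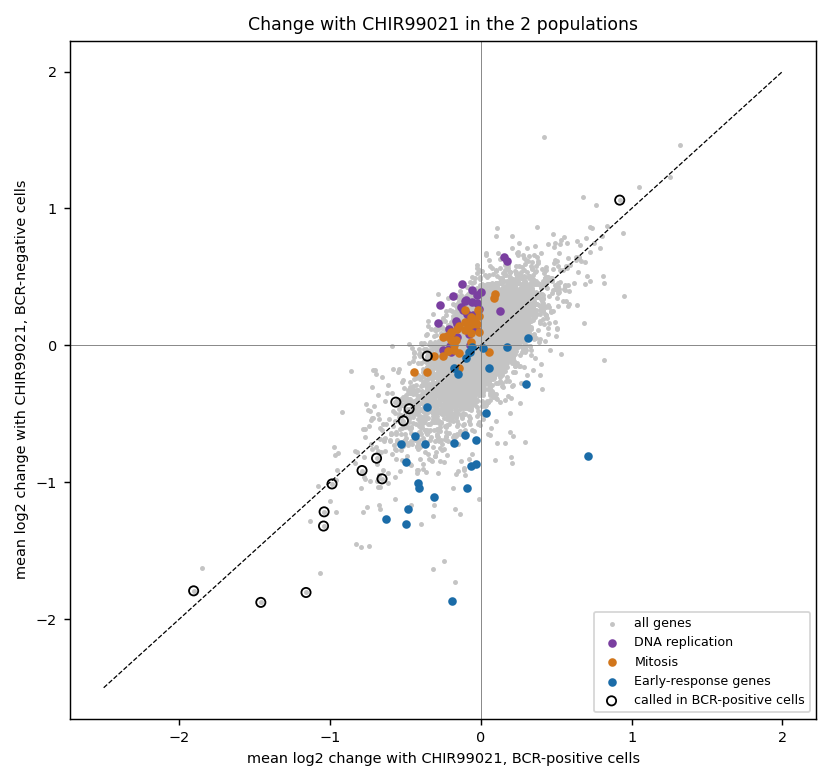
Mean log2 change with CHIR99021 in BCR-positive cells (horizontal axis) against that in BCR-negative cells (vertical axis) for 18820 genes; colours mark 3 lists, open circles the 14 genes called in BCR-positive cells, and the dashed line equal change. Of the circles 13 mark genes called in both populations and Foxc1 lies near 0 on the vertical axis; early-response genes lie mostly below the line, DNA replication and mitosis genes mostly above it.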

How the data were processed

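The authors deposited log2 expression for each probe set of 12 arrays, and the submitters' processing notes name RMA and Affymetrix Power Tools. Neither versions nor the annotation build of the probe sets is given in the sources used here. RMA brings all arrays towards one distribution, so a shift shared by most genes may not be seen. The array medians over all probe sets still ran from 4.71 to 4.92. Of 35556 probe sets the platform annotation gave 21218 a single gene symbol, 1881 several and 12457 none. Of the 21218, 21185 were matched by Entrez identifier to RefSeq (GRCm38.p6), and 0 symbols changed. The brightest probe set stood for each of 1386 genes with several, which left 18820 genes. No arrays were identical, and the number of arrays limits the precision.

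With limma 3.58.1 in R 4.3.3, group and lymphoma were terms of one linear model over the 12 arrays (4 groups of 3, 6 residual degrees of freedom). Moderated tests (eBayes) were adjusted by Benjamini-Hochberg across all 18820 genes. The titles pair arrays by lymphoma. Deviations from the group means correlated across genes at r of 0.813 to 0.907 within a lymphoma (18 pairs) and of -0.574 to -0.248 between lymphomas (36 pairs). The deviations of a group's arrays cancel out, so positive values within lymphomas bring negative ones between them by construction. P-values rest on the variation between lymphomas left after the group and lymphoma terms, pooled over all 4 groups. They do not rest on the 3 BCR-positive changes alone. With 1 culture of each lymphoma per condition, the spread between cultures of a lymphoma was not measured. The method was tested on simulated data, with independent noise between arrays and planted changes that were the same in every lymphoma. It was not tested on responses that differ between lymphomas.

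The rule for named genes took all called genes, the 10 next smallest p and the 5 largest mean changes per direction, the 3 smallest p of each of 36 gene lists, the 5 smallest p per direction for the difference between populations, and 16 fixed genes, of which Gsk3a was not analysed here. Other genes named were chosen after their values were seen. The members and lists were chosen with earlier results of these data known, and lists are described without a test. The alternatives were other forms of the block, the BCR-positive arrays alone, leaving out dim genes (below the 30th percentile), other probe set rules, array scaling (array medians, cyclic loess, quantile), a trended robust eBayes, and leaving out arrays or lymphomas.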

Additional observations from a re-analysis of the deposited data

Results flagged for a closer look

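The following values differed in sign between the populations. The median change of the 34 DNA replication genes with CHIR99021 was -0.0951 in BCR-positive cells and 0.2291 in BCR-negative cells, negative in all 3 lymphomas of the first and positive in all 3 of the second. The difference was not tested for the list. Of its members Rfc1, the large subunit of the clamp loader, had -0.1152 and 0.2576, and Rfc3, a small subunit, had -0.2866 and 0.1638. Bik, a pro-apoptotic member of the BCL2 family, had 0.1587 where the receptor was kept and -0.0902 where it was lost. In limma's test of the difference none of these genes passed (adjusted p = 0.928 for each).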

How the results depend on the processing

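Against 14 called genes, limma called 0 without the replicate block (411 at an unadjusted p under 0.05), 1 when the block was random, 33 with the block within each population, 18 with a random co-culture block and 109 from the 6 BCR-positive arrays alone. It called 23 with dim genes left out, 0 over every probe set (3009 at an unadjusted p under 0.05), 9 after cyclic loess, 9 after quantile normalization, 33 with a trended robust fit, 12 after subtracting array medians and 14 with the mean of probe sets. Leaving out arrays or lymphomas gave 0 to 38. The causes were not tested. The difference between populations had 0 called genes in each alternative that could test it, except that leaving out arrays gave 0 to 2, with 2 called without the untreated BCR-negative array of lymphoma 2676. All 14 called genes kept their sign in the 27 alternatives, and Mturn passed in 17 and Foxc1 in 5 of them. Of the 36 list medians, 27 kept their sign in all. Other blocks, the BCR-positive arrays alone, the trended robust fit and leaving out a BCR-negative array leave each mean change as it was. For the called genes, so do leaving out dim genes and testing every probe set. In these settings the sign was fixed in advance, and only the calls could move. The hypoxia median ran from 0.22 to 0.29, the ATF4 median from 0.14 to 0.25, the DNA replication median from -0.14 to -0.04 and the median of the B-cell transcription factors from -0.32 to -0.09.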
